A study of Homo sapiens with 6 samples.

Results

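The genes described here are the MiT/TFE transcription factors TFEB, TFE3 and MITF, the Rag GTPases RRAGA, RRAGB, RRAGC and RRAGD, and folliculin (FLCN) with its partners FNIP1 and FNIP2. They were taken by symbol, 10 of the 60419 genes in the deposited tables, and each symbol matched 1 row. RNA was sequenced from 12Z, an immortalised wild-type human line derived from endometriosis, a disease in which tissue like the uterine lining grows elsewhere. The cells were kept in medium with 10% charcoal-stripped serum and received an extract of myrrh, a tree resin, at 100 µg/mL in DMSO for 12 h (Myrrh, 3 libraries) or DMSO as the vehicle (DMSO, 3 libraries). The study asked which genes respond to the extract. All libraries came from 1 cell line, and the labels do not say whether the replicates were separate cultures, and the p-values therefore reflect only how far these libraries differ, which may be technical variation.

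These genes form a circuit at the surface of the lysosome. Rag GTPases work as pairs, RagA or RagB with RagC or RagD, which bring the growth kinase complex mTORC1 to the lysosome when amino acids are present. Folliculin, held by FNIP1 or FNIP2, switches the RagC or RagD partner by stimulating hydrolysis of its bound GTP. Rags in that state also bind the MiT/TFE factors and present them to mTORC1, whose phosphorylation keeps the factors in the cytoplasm, and factors that are released enter the nucleus and activate genes of lysosomes and autophagy through the sequence CACGTG. RRAGC, RRAGD, FLCN, FNIP1 and FNIP2 have been described as targets of the same factors, so that the circuit can act on its own genes.

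The promoters shown here are those of the Rag and folliculin partner genes that hold CACGTG, the core of the sites these factors bind. That of FNIP2, which rose without CACGTG in its windows, is shown too. TFE3, not shown, also rose without it, and RRAGB, which holds the most, did not pass the test described below. The promoters are RefSeq sequences on GRCh38.p14, from 250 bases before to 50 after a RefSeq start site, written 5′ to 3′ on the strand of the gene. Capitals mark CACGTG and, in FNIP1 and FNIP2, the 10-base palindrome GTCATATGAC. They lie at chr1:38859723-38860022 on the minus strand (RRAGC), chr5:131796968-131797267 on the minus strand (FNIP1), chrX:55717499-55717798 on the plus strand (RRAGB) and chr4:158768776-158769075 on the plus strand (FNIP2).
RRAGC: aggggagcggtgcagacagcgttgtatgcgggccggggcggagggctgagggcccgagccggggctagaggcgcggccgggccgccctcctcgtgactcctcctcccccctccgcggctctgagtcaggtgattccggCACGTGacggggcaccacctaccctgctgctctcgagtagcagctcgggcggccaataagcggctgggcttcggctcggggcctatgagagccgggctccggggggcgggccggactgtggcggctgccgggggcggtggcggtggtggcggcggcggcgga
FNIP1: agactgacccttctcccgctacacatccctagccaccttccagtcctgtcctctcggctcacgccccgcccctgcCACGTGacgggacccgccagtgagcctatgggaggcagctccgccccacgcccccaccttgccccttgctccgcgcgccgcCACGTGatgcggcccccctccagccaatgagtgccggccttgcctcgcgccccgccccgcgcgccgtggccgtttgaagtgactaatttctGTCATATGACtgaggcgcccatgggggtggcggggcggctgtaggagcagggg
RRAGB: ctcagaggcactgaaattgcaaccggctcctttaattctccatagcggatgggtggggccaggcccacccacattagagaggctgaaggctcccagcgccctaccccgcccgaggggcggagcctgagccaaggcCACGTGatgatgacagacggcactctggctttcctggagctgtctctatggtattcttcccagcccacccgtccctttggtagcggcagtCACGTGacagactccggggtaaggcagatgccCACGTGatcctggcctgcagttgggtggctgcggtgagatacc
FNIP2: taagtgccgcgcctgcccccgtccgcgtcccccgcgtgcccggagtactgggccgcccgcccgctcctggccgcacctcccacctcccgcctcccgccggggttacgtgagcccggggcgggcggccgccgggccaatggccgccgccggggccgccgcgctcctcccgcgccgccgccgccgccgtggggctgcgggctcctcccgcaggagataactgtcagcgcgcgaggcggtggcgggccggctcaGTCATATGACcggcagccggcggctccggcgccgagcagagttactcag

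The promoter table held 13 entries for 8 of the 10 genes, some with several starts, and none for RRAGA and RRAGD. CACGTG, which reads the same on both strands, was found in 3 of the 13 entries and in 7.26% of all 35116 promoters of this length. It stood once in RRAGC, from position -112 counted from the start site, at 2 places in FNIP1, from -175 and -94, and at 3 places in RRAGB, from -115, -25 and 8. The longer TCACGTG, searched on both strands and always overlapping CACGTG, was in the same 3 entries and in 3.71% of all promoters. The CACGTG at -25 in RRAGB lies in the 10-base palindrome GTCACGTGAC, read from that promoter, which was in 1 of the 13 entries and in 0.353% of all promoters. TCATGTG, a form recognised by MITF, was in 1 entry, a second start of FNIP2, and in 2.92% of all promoters, searched on both strands. TGATGCAA, a form of the element bound by ATF4 with its partners, was in 0 of the 13 entries and in 0.866% of all promoters, on both strands. A match describes letters in these windows and is not a measured site.

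In the Myrrh libraries RRAGD rose 28.9-fold, RRAGC 2.76-fold, FNIP2 1.88-fold, TFE3 1.84-fold and FNIP1 1.51-fold, and RRAGA fell by 0.33 on the log2 scale. TFEB, MITF, RRAGB and FLCN did not pass the test. A gene was called from the authors' estimated counts with the quasi-likelihood test of edgeR, with Benjamini-Hochberg adjustment over the 16395 genes that passed a filter on low counts and a threshold of 0.05. So 6 of the 10 genes were called, against 78.4% of all genes tested. The 5 that rose compare with 39.3% of all genes, and the 1 that fell with 39.1%. RRAGC and RRAGD, which rose by more than 2-fold, compare with 11.3% of all genes that rose by at least that much. Most genes changed in this comparison, and with 10 genes these shares are not read as a property of the group. The median log2 fold change was 0.35 over the 10 genes and -0.02 over all genes tested. RRAGD passed the filter through its Myrrh counts.

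Among the transcription factors TFE3 rose, and TFEB and MITF did not pass the test. TFE3, the most abundant of them, had 95.1, 92.6 and 90.5 CPM (estimated counts scaled by library size and TMM factor) in the DMSO libraries and 165.8, 165.8 and 179.8 CPM in the Myrrh libraries. Every Myrrh library was above every DMSO library, and the log2 fold change was 0.88 ± 0.05 (SE, adjusted p = 2.06e-14, edgeR). TFEB, the factor best known as a regulator of lysosome genes, had 5.22, 4.61 and 5.62 CPM in DMSO and 4.15, 5.38 and 4.70 CPM in Myrrh. The groups overlapped, at a log2 fold change of -0.12 ± 0.14 (SE, adjusted p = 0.441, edgeR). MITF, best known from pigment cells, had 8.71, 9.51 and 11.1 CPM in DMSO and 8.13, 9.01 and 9.58 CPM in Myrrh. Its groups overlapped too (-0.14 ± 0.11, adjusted p = 0.232, edgeR), and it was called lower when scaled by library totals alone (-0.28, adjusted p = 0.0206). The values of MITF and TFEB are sums over 18 and 17 annotated transcripts, so the forms that start at different promoters are not separated. TFEC, the remaining family member, had at most 1 estimated count in a DMSO library and 2, 5 and 3 in the Myrrh libraries, and was not tested.

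Of the Rag GTPases, the RagC and RagD genes rose and the RagA gene fell. RRAGD had 7, 6 and 6 estimated counts in the DMSO libraries and 181, 158 and 134 in the Myrrh libraries, or 0.295, 0.208 and 0.216 against 7.59, 7.08 and 6.29 CPM. It was thus barely detected in DMSO and present in every Myrrh library. The log2 fold change was 4.85 ± 0.23 (SE, adjusted p = 1.53e-16, edgeR), the 31st highest of the 16395 genes tested. RRAGC, which encodes the more widely expressed partner, had 35.3, 35.9 and 38.8 CPM in DMSO and 95.6, 104.8 and 103.6 CPM in Myrrh. The groups were far apart, at 1.47 ± 0.06 (SE, adjusted p = 4.66e-18, edgeR), and 4.86% of genes had a higher value. RRAGA, a gene of 1 exon that encodes the main partner of RagC, had 32.6, 33.3 and 33.1 CPM in DMSO and 25.3, 27.2 and 26.6 CPM in Myrrh. Each Myrrh library was below each DMSO library, and RRAGA fell by 0.33 ± 0.06 on the log2 scale (SE, adjusted p = 4.85e-05, edgeR). RRAGB, its close relative, had 7.70, 7.67 and 7.32 CPM in DMSO and 6.96, 7.39 and 5.92 CPM in Myrrh. Myrrh replicate 2 lay within the DMSO range, and the gene was not called (-0.16 ± 0.11, adjusted p = 0.199, edgeR), though it was with library totals (-0.30, adjusted p = 0.0197).

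FNIP1 and FNIP2, which encode the partners that hold folliculin, both rose, while FLCN itself was not called. FNIP1 had 39.0, 38.3 and 36.7 CPM in DMSO and 64.3, 53.8 and 54.3 CPM in Myrrh, with replicate 1 above the other Myrrh libraries. All 3 were above DMSO, at 0.60 ± 0.07 (SE, adjusted p = 8.58e-09, edgeR). FNIP2 had 6.90, 8.88 and 8.44 CPM in DMSO and 16.0, 15.9 and 14.0 CPM in Myrrh, again without overlap (0.91 ± 0.10, adjusted p = 5.02e-09, edgeR). FLCN had 78.4, 75.5 and 76.0 CPM in DMSO and 88.9, 78.3 and 79.7 CPM in Myrrh. Its Myrrh replicate 2 lay just below DMSO replicate 1, and the log2 fold change was 0.10 ± 0.06 (SE, adjusted p = 0.0884, edgeR). This value turned to -0.04 with library totals and to -0.02 with upper-quartile factors in place of TMM factors, so the direction of FLCN depends on the scaling. CPM of the 2 groups did not overlap for 6 of the 10 genes, against 80.3% of all genes tested.

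**Figure D1:**
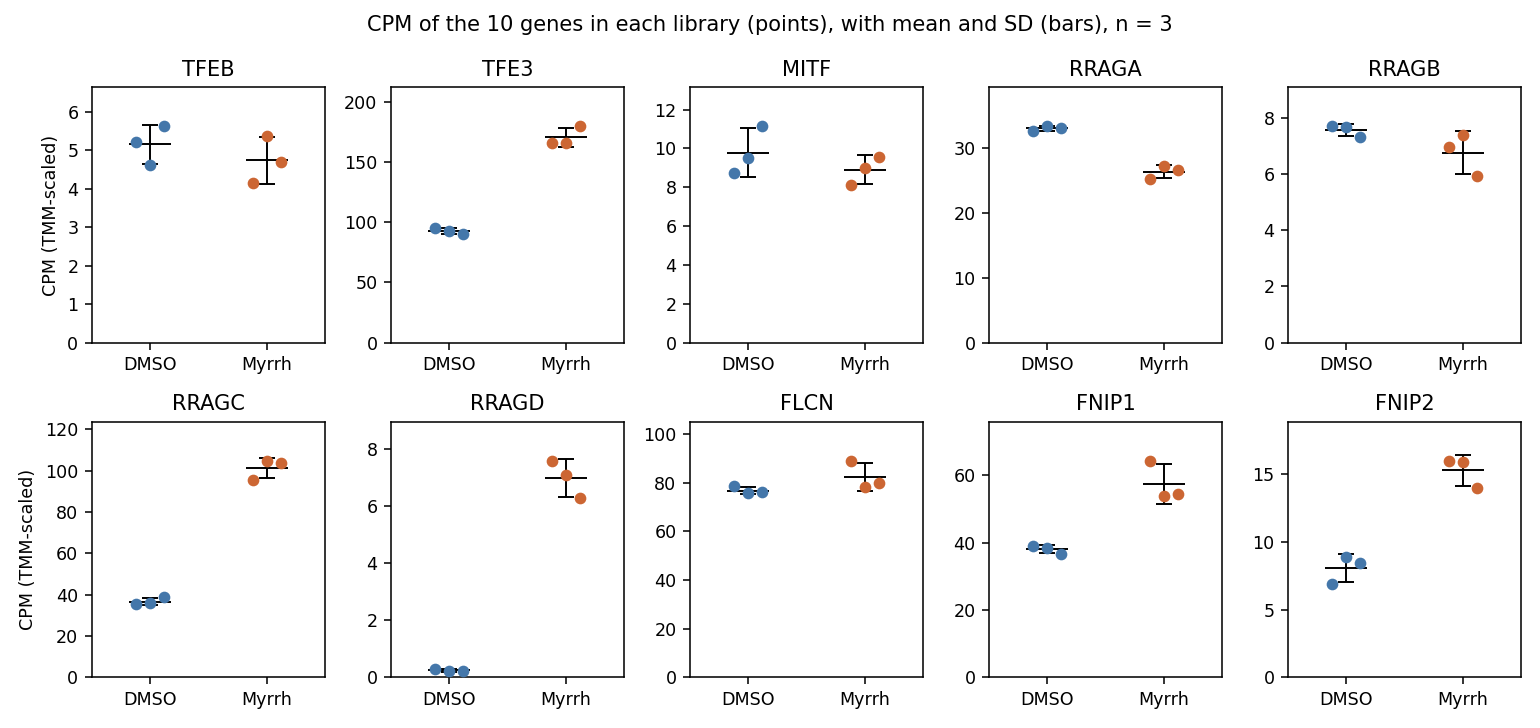
CPM (y axis, linear and starting at 0, with its own range for each gene) of the 10 genes in the 3 DMSO and 3 Myrrh libraries. Points are libraries, and bars give the mean ± SD. RRAGD goes from 0.240 ± 0.048 to 6.99 ± 0.652 CPM and RRAGC from 36.7 ± 1.87 to 101 ± 5.00 CPM, while the points of TFEB, MITF, RRAGB and FLCN overlap between groups.

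In GRCh38 (GENCODE release 29) all 10 genes are annotated as protein-coding. TFEB lies on chromosome 6 at 41683978 to 41736259 and RRAGD on the same chromosome at 89364636 to 89412270. TFE3 lies on chromosome X at 49028726 to 49043486 and RRAGB, on the same chromosome, at 55717739 to 55758774. MITF lies on chromosome 3 at 69739435 to 69968337, RRAGA on chromosome 9 at 19049395 to 19050983 and RRAGC on chromosome 1 at 38838198 to 38859823. FLCN lies on chromosome 17 at 17212212 to 17237188, FNIP1 on chromosome 5 at 131641714 to 131797063 and FNIP2 on chromosome 4 at 158769138 to 158908049. FLCN shares 1161 exonic bases with AC055811.2, a protein-coding gene on the same strand, which held 6.79 estimated counts over the DMSO libraries and 18.6 over the Myrrh libraries. FLCN was also the only one of the 10 genes with estimated counts that were not whole numbers, in 4 libraries. RRAGC shares 1183 exonic bases with AL139260.2 and FNIP1 shares 281 with AC008695.1, and neither of those genes had a count in any library.

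Levels of different genes were compared on the authors' TPM, which divide by transcript length. In DMSO the order was TFE3 (40.5 ± 0.829 TPM, mean ± SD, n = 3), FLCN (34.8 ± 0.655), RRAGA (29.7 ± 0.549), RRAGC (19.5 ± 1.45), RRAGB (8.44 ± 0.975), FNIP1 (8.34 ± 0.189), TFEB (3.74 ± 0.410), MITF (2.84 ± 0.423), FNIP2 (1.57 ± 0.119) and RRAGD (0.070 ± 0.010). Neighbours in this order whose libraries overlapped were RRAGB with FNIP1 and TFEB with MITF. In Myrrh the order was TFE3 (73.3 ± 5.31 TPM), RRAGC (55.7 ± 2.31), FLCN (41.6 ± 5.49), RRAGA (24.3 ± 0.482), FNIP1 (13.0 ± 1.88), RRAGB (7.35 ± 2.75), RRAGD (4.17 ± 0.459), TFEB (3.61 ± 0.499), FNIP2 (3.54 ± 0.150) and MITF (2.62 ± 0.159). RRAGC stood above RRAGA and FLCN there, and below both in DMSO. RRAGB with RRAGD, RRAGD with TFEB, and TFEB with FNIP2 overlapped.

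TPM and counts gave different sizes of change for RRAGD, FNIP2 and FLCN, and a different spread for RRAGB. RRAGD had 0.08, 0.07 and 0.06 TPM in DMSO and 4.69, 3.82 and 4.0 TPM in Myrrh, a ratio of means of 59.6 against 28.9-fold on counts. Its DMSO values are of 6 or 7 counts and are deposited in steps of 0.01 TPM, so that ratio is coarse. The ratio of mean TPM of FNIP2 was 2.26, against 1.88-fold on counts. RRAGB had 7.98, 7.78 and 9.56 TPM in DMSO and 10.1, 7.41 and 4.57 TPM in Myrrh, a wider spread over the Myrrh libraries than its 5.92 to 7.39 CPM. FLCN had 35.3, 34.1 and 35.1 TPM in DMSO and 47.1, 36.1 and 41.7 TPM in Myrrh, which do not overlap. On log2(TPM + 1) limma gave FLCN a difference of 0.24 ± 0.09 (SE) with an adjusted p of 0.0294 over the same genes and 0.0873 over every gene above 0. The log2 counts per TPM, Myrrh minus DMSO, differed by -0.191 for FNIP2, -0.087 for FLCN and 0.159 for RRAGB. All 3 lay within the 5th to 95th percentiles (-0.337 to 0.230) of 14350 genes with 10 or more counts in every library. RRAGD, at -0.961, had too few counts to be among those genes. RRAGD has 3 annotated transcripts of 892 to 4900 bases, RRAGB 6 of 376 to 2061 and FLCN 10 of 243 to 3638, while RRAGA has 1. RSEM divides a gene's reads by the lengths of the transcripts it assigns them to, so TPM move with that assignment, and its part in these values was not tested.

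**Figure D2:**
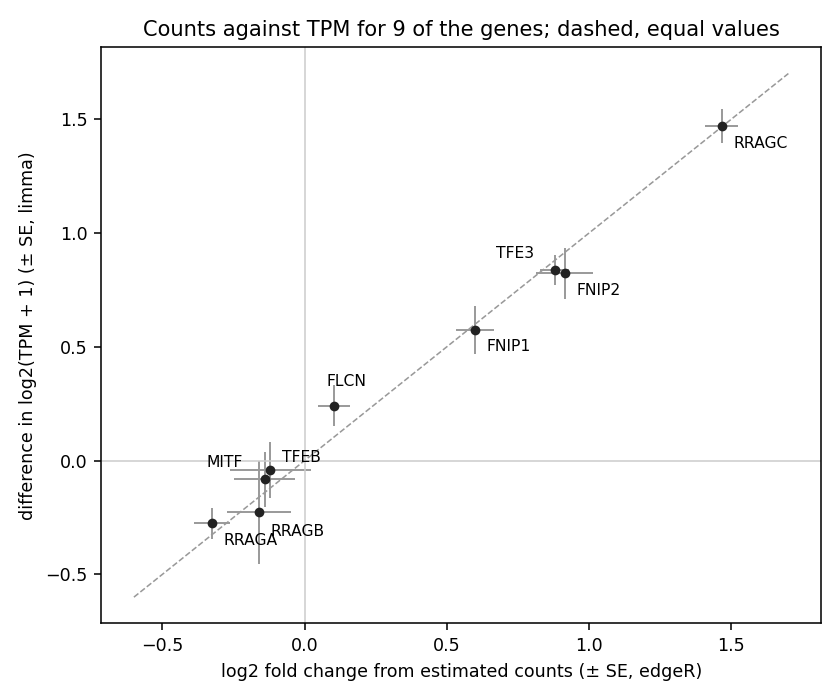
Change of 9 genes on estimated counts (x axis, log2 fold change ± SE, edgeR) and on the authors' values (y axis, difference in log2(TPM + 1) ± SE, limma), Myrrh against DMSO. The dashed line marks equal values. FLCN lies above the line, at 0.10 and 0.24, and RRAGD is not drawn because the pseudocount of 1 shrinks its difference to 2.27.

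The balance between close relatives was read from TPM within each library. RRAGD made up 0.426%, 0.375% and 0.283% of the summed TPM of RRAGC and RRAGD in DMSO and 7.90%, 6.60% and 6.42% in Myrrh. On CPM its share was 0.827%, 0.577% and 0.555% in DMSO and 7.35%, 6.33% and 5.73% in Myrrh, a smaller contrast. RRAGC thus supplied nearly all of this pair's TPM in both groups. The sum of RRAGC and RRAGD was 19.6 ± 1.44 TPM in DMSO and 59.8 ± 2.27 TPM in Myrrh (mean ± SD, n = 3), and that of RRAGA and RRAGB 38.1 ± 1.52 and 31.7 ± 2.57. The ratio of the first sum to the second was 0.503, 0.503 and 0.533 in DMSO and 1.72, 1.85 and 2.12 in Myrrh. Transcripts of the RagA and RagB genes were therefore in excess in every DMSO library and those of the RagC and RagD genes in every Myrrh library. On CPM, which are not divided by length, this ratio was 0.909 ± 0.048 and 3.27 ± 0.093.

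RRAGB took 21.4%, 21.0% and 24.0% of the summed TPM of RRAGA and RRAGB in DMSO and 29.2%, 23.7% and 15.6% in Myrrh, which overlap. FNIP2 took 14.4%, 16.5% and 16.6% of the FNIP1 and FNIP2 sum in DMSO and 18.5%, 24.3% and 21.98% in Myrrh, so its share was higher in every Myrrh library. TFE3 supplied 86.6%, 87.0% and 84.5% of the summed TPM of TFEB, TFE3 and MITF in DMSO and 92.6%, 91.0% and 92.8% in Myrrh. TFEB went from 7.94% ± 0.722 to 4.58% ± 0.936 of that sum and MITF from 6.03% ± 0.880 to 3.29% ± 0.143 (SD, n = 3). The sum of the 3 factors was 47.1 ± 1.03 TPM in DMSO and 79.5 ± 4.93 TPM in Myrrh. As log2 ratios, RRAGD to RRAGC differed between the groups by 4.39, FNIP2 to FNIP1 by 0.55, TFEB to TFE3 by -0.91, MITF to TFE3 by -0.96 and RRAGB to RRAGA by 0.02. The first 4 each had p = 0.1 by a two-sided exact permutation test, the smallest p that 3 libraries against 3 can give (0.125 after Benjamini-Hochberg adjustment over the 5 ratios), and RRAGB to RRAGA had p = 1. The TPM of RRAGD in DMSO rest on 6 or 7 counts per library. Its TPM changed more than its counts, so the 4.39 is a value on TPM only.

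**Figure D3:**
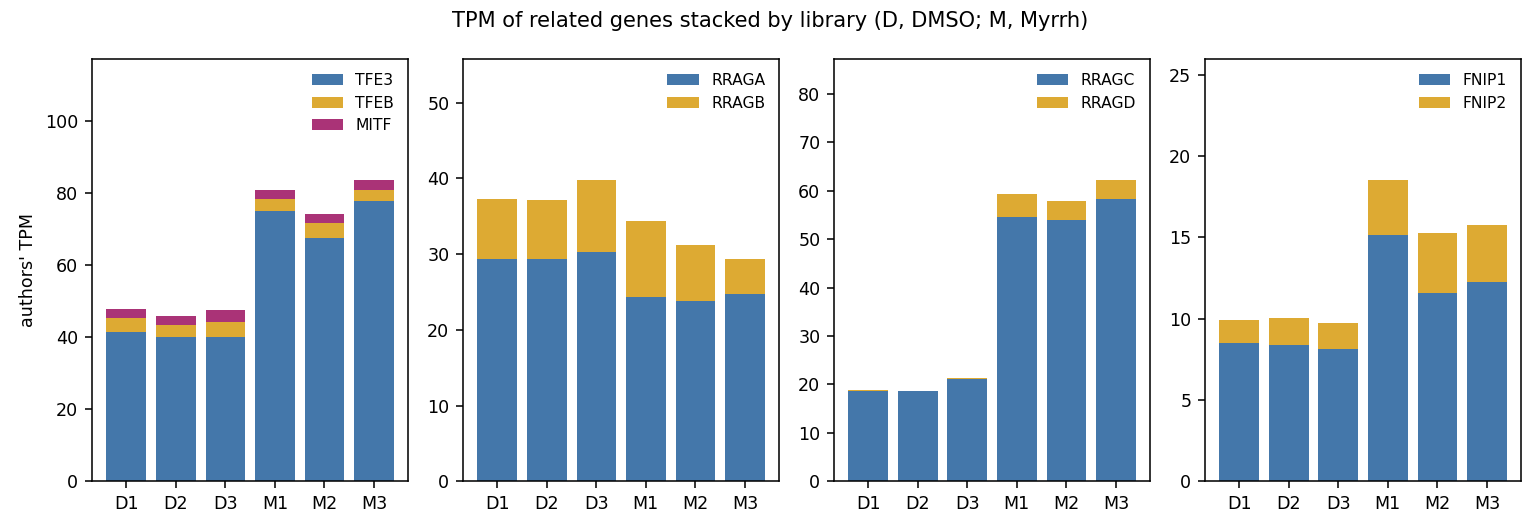
The authors' TPM (y axis, linear from 0, with its own range in each panel) of TFE3, TFEB and MITF, of RRAGA and RRAGB, of RRAGC and RRAGD, and of FNIP1 and FNIP2, stacked for each library (D1 to D3, DMSO; M1 to M3, Myrrh). The RRAGC and RRAGD stack goes from 19.6 ± 1.44 to 59.8 ± 2.27 TPM, while that of RRAGA and RRAGB goes from 38.1 ± 1.52 to 31.7 ± 2.57 TPM.

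Around the Rags, genes of the lysosomal scaffold and of the sensors changed in both directions. The counts for these lists are to be read against the 78.4% of all tested genes that were called, 39.3% higher and 39.1% lower, and a list of a few genes with such shares is not set apart by its count. Ragulator, the scaffold that anchors the Rags, and SLC38A9, the lysosomal arginine sensor, had 3 of 6 genes higher and 2 lower, with a median log2 fold change of 0.16. SLC38A9 rose by 1.34 ± 0.07, from 14.0 ± 0.693 to 35.3 ± 1.86 CPM, and LAMTOR1, the subunit that tethers the scaffold to the membrane, by 0.80 ± 0.06. LAMTOR5 fell by 0.40 ± 0.06 and LAMTOR2 by 0.18 ± 0.06. Of 7 genes of GATOR1, which switches RagA and RagB off, and of KICSTOR, which places GATOR1 on the lysosome, 3 rose and 4 fell (median -0.28). KICS2 (1.15 ± 0.11) and ITFG2 (0.79 ± 0.06), both of KICSTOR, rose, and NPRL2 of GATOR1 (-0.80 ± 0.07) and KPTN of KICSTOR (-0.59 ± 0.11) fell. Among 5 genes of GATOR2, which opposes GATOR1, 3 rose and 1 fell (median 0.28), with SEC13 at 0.70 ± 0.05, MIOS at 0.59 ± 0.07 and WDR59 at -0.44 ± 0.05.

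The sensors that act on these complexes split. Of 6 sensor genes, 5 were tested, and 2 rose and 2 fell (median -0.02). SESN2, a leucine sensor that binds GATOR2, rose by 3.14 ± 0.06 and BMT2, the methionine-linked sensor SAMTOR, by 1.74 ± 0.07. The arginine sensors CASTOR2 (-1.59 ± 0.07) and CASTOR1 (-1.01 ± 0.19) fell. All 3 genes of the C9orf72 complex, whose SMCR8 subunit resembles folliculin in fold, rose (median 1.27), against 39.3% of all tested genes, SMCR8 by 1.48 ± 0.06 and C9orf72 by 1.27 ± 0.08. RNF152, a ubiquitin ligase for RagA, had 0.146 ± 0.147 CPM in DMSO and 0.810 ± 0.329 CPM in Myrrh (2.52 ± 0.59). It held 66 estimated counts over all libraries and, like RRAGD, passed the filter through its Myrrh counts. SKP2, another ligase for RagA, fell by 1.51 ± 0.05. The highest adjusted p among the genes given with a value here and in the paragraph before was 0.00609, for LAMTOR2, by edgeR's quasi-likelihood test.

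Of 9 genes of mTORC1, its inhibitor TSC and its activator RHEB, 5 rose and 1 fell (median 0.20), 6 of 9 called against 78.4% of all tested genes. RHEB rose by 0.71 ± 0.06 and MLST8, an mTORC1 subunit, by 0.65 ± 0.07, and TSC2 fell by 0.54 ± 0.05. With library totals 3 rose and 2 fell, where 5378 and 7479 of all 16395 tested genes did. Of 13 genes that govern where the MiT/TFE factors reside, 6 rose and 5 fell (median 0.10). MCOLN1, the lysosomal calcium channel, rose by 1.39 ± 0.07 and YWHAG, one of the adaptor proteins that retain phosphorylated factors in the cytoplasm, by 1.27 ± 0.06. YWHAH, from the same adaptor family, fell by 0.99 ± 0.05 and PPP3CB, a catalytic subunit of the phosphatase calcineurin that releases TFEB, by 0.64 ± 0.06. All of these had adjusted p below that of LAMTOR2 (edgeR).

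Of 17 genes known as MiT/TFE targets, 16 were tested, and 15 rose and none fell, where 39.3% of all genes tested rose and 39.1% fell. The median log2 fold change was 1.05, against -0.02 over all genes tested. SQSTM1, the autophagy receptor p62, had the highest value (2.76 ± 0.06, from 509 ± 5.22 to 3449 ± 103 CPM), followed by CTSD, the lysosomal protease cathepsin D (1.77 ± 0.06, from 169 ± 2.54 to 578 ± 48.2 CPM). CTSB, cathepsin B, was the 1 gene not called (-0.08 ± 0.06), and it was called lower with library totals (-0.22), with upper-quartile factors (-0.21) and with a filter of 5 CPM in 3 libraries (-0.18). PPARGC1A was not tested. MCOLN1 is in this list and in that of the regulators. The melanocyte markers given below, which bear on MITF, are not in this list, and the 2 tested, TYRP1 and PMEL, fell. That none fell thus holds only for the genes listed. The list was put together with results on autophagy genes of these libraries known, so its direction is not independent evidence, and other factors also act on several of its genes.

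**Figure D4:**
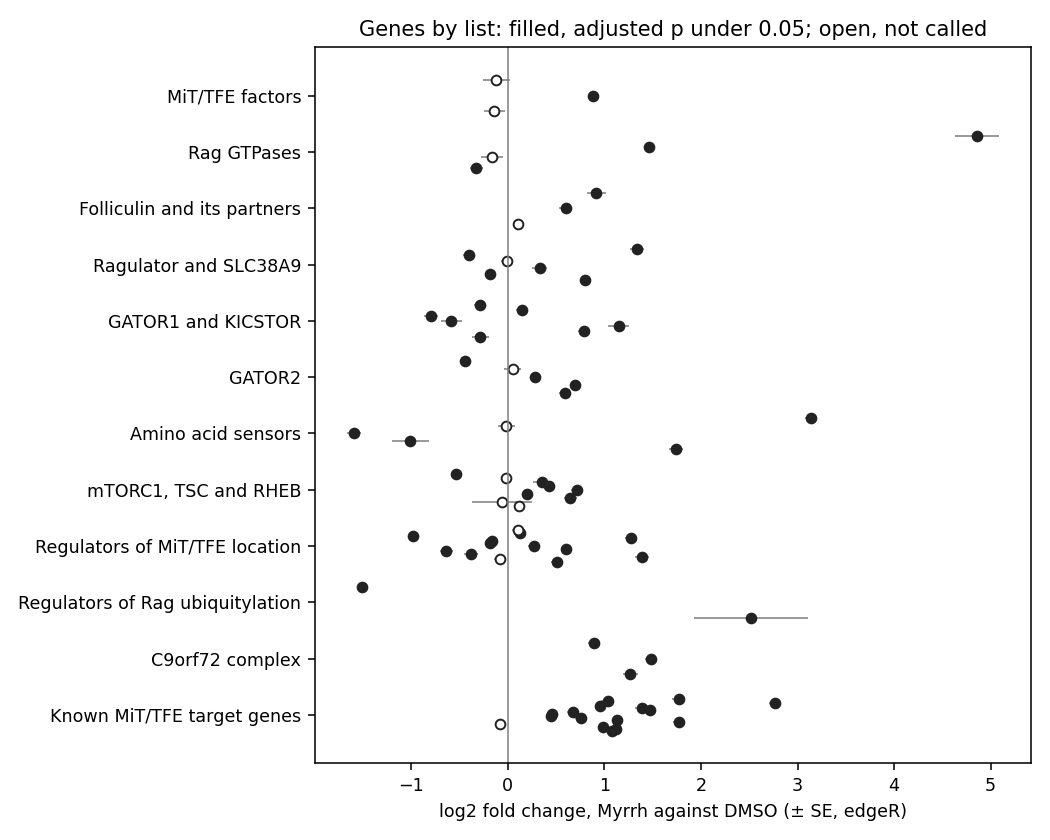
log2 fold change, Myrrh against DMSO (x axis, ± SE, edgeR), of each tested gene (point) by list (y axis). Filled points passed an adjusted p of 0.05 and open points did not. The points of the MiT/TFE targets lie above 0 except CTSB at -0.08, those of the Rag genes run from -0.33 to 4.85, and those of the sensors from -1.59 to 3.14.

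The 5 genes whose profile over the 6 libraries was nearest to that of RRAGD were DUSP15, ATF3, DUSP8, SLC3A2 and BAG3. Likeness was the Euclidean distance of log2 CPM (with a prior count of 2) less the DMSO mean, over 13458 candidate genes, and these distances were 0.509 to 0.549. ATF3, a stress-induced transcription factor, went from 5.81 to 146 CPM, and SLC3A2, the heavy chain shared by several amino acid transporters, from 141 to 2672 CPM. DUSP8, a phosphatase of MAP kinases, went from 0.765 to 16.2 CPM, and BAG3, a co-chaperone of selective autophagy, from 58.9 to 1114 CPM. DUSP15 was at 0 in every DMSO library and had a Myrrh mean of 2.04 CPM. Its edgeR log2 fold change was 8.66 ± 0.64 (SE), against 4.85 for RRAGD. The prior count shrinks changes of genes near 0 CPM, and DUSP15 is near RRAGD only on that scale. With 2 groups, this measure mostly reflects the size of the change after such shrinkage.

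Depth was 22454783 to 27588151 estimated counts per library, with TMM factors of 1.05 in DMSO and 0.933 to 0.973 in Myrrh. Among the epithelial and stromal markers, the keratin gene KRT8 (1010 CPM in DMSO) and vimentin, VIM (2709 CPM), were high. The keratin genes KRT18 and KRT19 were at 627 and 137 CPM in DMSO. EPCAM was low at 1.04 CPM, and CDH1, the epithelial cadherin, was near 0 at 0.176 CPM. The 5 stromal markers all fell, where 39.1% of all tested genes did. Their summed CPM went from a range of 8830 to 9147 to one of 2800 to 2961. Most of the DMSO sum was COL1A1, which went from 5725 to 762 CPM, while VIM went from 2709 to 1992 CPM. Of 5 epithelial markers 4 were tested, and 1 rose and 3 fell, where 39.3% and 39.1% of all tested genes did. The summed CPM of the 5 went from a range of 1740 to 1830 to one of 1218 to 1347. Of 7 melanocyte markers, which bear on MITF, TYR and MLANA were at 0 in every library. The sum of the 7 was 2.46 to 2.78 CPM in DMSO and 0.845 to 0.986 in Myrrh. Only 2 of the 7 were tested, and both fell, where 39.1% of all tested genes did. They were TYRP1 (-2.85 ± 0.36, from 1.42 CPM in DMSO) and PMEL (-1.20 ± 0.40, from 0.798 CPM), both at low levels. Of 6 leukocyte markers 3 were tested, and 1 rose and 2 fell, against the same shares of all tested genes. The sum of the 6 (34.1 to 35.2 CPM in DMSO, 51.4 to 63.8 in Myrrh) was mostly CD68. This lysosomal membrane protein rose by 0.84 ± 0.07. TYROBP and ITGAM had no counts in Myrrh and held only 1 and 5 over all libraries. The 5 endothelial markers summed to less than 1 CPM in every library, with CDH5 at 0. All libraries came from 1 cell line, so these lists describe genes of that line and not a mixture of cell types. The part of the stromal and epithelial changes in the results above was not tested. In these bulk samples a change in all cells and a change in some of them cannot be told apart.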

How the data were processed

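Groups and replicate numbers came from the sample titles. The authors deposited estimated counts per gene, not scaled between libraries, and log2(TPM + 1) values, scaled within each library. Per the submitters' processing notes, STAR, RSEM 1.3.1 and GRCh38 were used; their annotation and strand setting are not stated in the sources used here. Per the labels' protocols, 1.5 µg of total RNA entered a TruSeq library preparation.

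Estimated counts were rounded, filtered with filterByExpr, scaled with TMM factors and tested with edgeR 4.0.16 (glmQLFit, robust, in R 4.3.3). The test was run on simulated counts whose settings came from the fit of these data, with only a small part of the genes changed. That simulation therefore cannot check the scaling where most genes change, as they did here. Standard errors were derived from the F statistic. TPM were had by undoing the deposited log2. Alternatives used RLE, upper-quartile or no factors, other filters, DESeq2 1.42.0, limma 3.58.1 on log2(TPM + 1), a replicate block and each library left out. Replicates differed beyond counting noise (chi-square per degree of freedom, 3.88 to 9.49).

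The 10 genes and 18 lists (107 symbols) were chosen with earlier results of these data known. Named genes were the 10, TFEC, up to 2 called genes at each end of each list, and the 5 nearest to the gene with the largest change; other names are examples chosen after their values were seen. Gene positions came from GENCODE release 29, matched by Ensembl identifier for 10 of 10 genes.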

Additional observations from a re-analysis of the deposited data

How the results depend on the processing

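The calls and directions of TFE3, RRAGA, RRAGC, RRAGD, FNIP1 and FNIP2 held in the 15 alternatives run for each. Without TMM factors the median of all genes shifted by -0.14 on the log2 scale, and with upper-quartile factors by -0.13. With library totals, with upper-quartile factors and with a filter of 5 CPM in 3 libraries, 3 of the 10 genes were called lower instead of 1. Over all genes, 7479 of 16395, 7389 of 16395 and 5033 of 11912 were called lower in turn, against 6418 of 16395 in the fit used above. Among the 10 genes the added calls were MITF (-0.28, -0.27 and -0.24 in turn) and RRAGB (-0.30, -0.29 and -0.26), with adjusted p of 0.0197 to 0.0439 (edgeR). FLCN reversed to -0.038 with library totals and -0.022 with upper-quartile factors, both uncalled. It was called higher with no filter (0.13), on log2(TPM + 1) of the same genes (0.24), and without Myrrh replicate 2 (0.14) or Myrrh replicate 3 (0.14), while its adjusted p ran from 0.0202 to 0.937 over all alternatives. The cause was not tested. Of the mTORC1, TSC and RHEB genes 3 rose and 2 fell with library totals, and 2 fell with upper-quartile factors. Of the MiT/TFE targets 1 fell under either. The RRAGB share differed by 0.73 percentage points between groups, from -2.46 (without Myrrh replicate 1) to 4.37 with 1 library left out. Same-numbered libraries did not deviate together (correlations -0.067, -0.002 and -0.003 over 11605 genes). With the replicate block 5 of the 10 genes rose and 1 fell, and 6390 and 6392 of all genes, against 6436 and 6418 without it. Depth limits RRAGD in DMSO, RNF152 and TFEC, which rest on few counts.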

Other observations

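The 10-base palindrome GTCATATGAC, marked in capitals in the FNIP1 and FNIP2 promoters, was taken from those sequences as the longest palindrome that both hold. Its presence in both was thus set by the choice, and its low share among all promoters is not separate evidence. The palindrome begins at position -3 in FNIP1 and at position 2 in FNIP2, counted from the RefSeq start site. GENCODE sets the start of FNIP2 at 158769138, past the end of its window at 158769075, and that of FNIP1 at 131797063. These positions therefore depend on the start site used. It was found in 6 of the 35116 promoters of this length (0.0171%), and the other 4 were those of LIPA, which encodes the lysosomal acid lipase, of SMARCAD1 and of the noncoding genes LINC00837 and LINC01087. In those 4 it began between positions -209 and -95. LIPA fell by 0.20 ± 0.05 on the log2 scale (SE, adjusted p = 0.00132, edgeR), SMARCAD1 was at -0.12 ± 0.06 (adjusted p = 0.0853, edgeR), and the noncoding genes were not tested. The promoters with this sequence thus belong to genes with values in both directions, and whether any factor binds it was not measured here.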
